A study of Homo sapiens with 33 samples.

Results

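The aldo-keto reductases are soluble enzymes that use NADPH to reduce aldehydes and ketones to alcohols. Their substrates include sugars, products of lipid peroxidation, retinal, steroid hormones and prostaglandins. Several human genes of the family are known targets of NRF2 (gene NFE2L2), the transcription factor that KEAP1 holds down until oxidants or electrophiles release it, and members of the family have been studied in tumours for their reduction of drugs and reactive carbonyls. The 6 genes AKR1A1, AKR1B1, AKR1B10, AKR1C1, AKR1C2 and AKR1C3 were taken by symbol from the 29744 genes measured. The AKR1C genes are close copies of each other, so their sum is given as well.

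RNA-seq was performed on 33 libraries, 3 from each of 11 high-grade serous ovarian carcinoma (HGSOC) cell lines. The established lines OVCAR3 and OVCAR4 are platinum-sensitive, and each has 2 resistant derivatives, ResA and ResB, that were selected separately with repeated pulses of cisplatin at rising doses and then kept without the drug. PEO1 (sensitive), PEO4 and PEO6 (resistant) form a family of established lines that came from 1 donor, and PEA1 (sensitive) and PEA2 (resistant) form another. This gave 4 families, 4 sensitive lines, 7 resistant lines and 7 resistant-sensitive pairs. Neither the OVCAR derivatives nor the PEO and PEA lines are single-gene models, and a resistant line differs from its partner in everything acquired since they parted. Nothing in the labels says that the 3 libraries of a line came from separate cultures, so p-values measure the spread between these libraries.

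The libraries held 18058984 to 43394008 estimated counts, with a median of 30611447. The mitochondrial ribosomal RNA genes RNR1 and RNR2 took 1.12% to 14.8% of the counts of a library, and they varied most within OVCAR4 and its derivatives. Of 11 ovarian carcinoma markers, 8 to 11 reached 1 TPM (the transcripts-per-million scale) in each line. Of 8 markers of immune, endothelial and stromal cells, 1 to 3 did. TPM scales the reads of a gene by its length and by the library's total, so TPM levels can be set side by side between genes. In bulk RNA, fewer cells that express a gene and less RNA of it in each cell cannot be told apart.

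The members lie in 3 places of the genome (RefSeq, build GRCh38.p14). AKR1A1 is on chromosome 1 (45550826 to 45570049). AKR1B1 (134442350 to 134459239) and AKR1B10 (134527567 to 134541412) are neighbours on chromosome 7. AKR1C1 (4963415 to 4983283), AKR1C2 (4987775 to 5018000) and AKR1C3 (5048781 to 5107686) are clustered on chromosome 10. Reads can be shared between copies: 19.5% of the 50-base words of AKR1C1 transcripts (GENCODE) also occurred in AKR1C2 transcripts and 32.0% of those of AKR1C2 in AKR1C1. For AKR1C3, 8.98% of the words occurred in a close relative, and for AKR1B10 9.54% occurred in AKR1B15. AKR1A1 and AKR1B1 shared none. The words were pooled over all protein-coding transcripts of a gene, with 8805 for AKR1C1, 5349 for AKR1C2 and 2361 for AKR1C3. These shares thus depend on which transcripts are listed and are not the share for a single transcript. The split of counts between AKR1C1 and AKR1C2 is therefore uncertain. Whether the counting used strand is not given in the sources used here.

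RefSeq promoters were matched for 5 of the 6 members. The promoters of the AKR1C genes are shown because 2 of these genes were nearly silent in most lines while AKR1C3, beside them, was not. Each sequence is the 250 bases before a RefSeq start, 5′ to 3′ on the strand of the gene, and the capitals mark the only CCAAT box in it (CCAAT, or ATTGG where it lies on the other strand).
AKR1C1, chr10:4963165-4963414, plus strand: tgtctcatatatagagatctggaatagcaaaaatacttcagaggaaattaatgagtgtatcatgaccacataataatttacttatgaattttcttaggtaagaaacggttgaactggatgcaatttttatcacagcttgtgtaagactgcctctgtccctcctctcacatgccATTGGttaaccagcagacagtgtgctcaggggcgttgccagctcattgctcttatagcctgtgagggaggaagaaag
AKR1C2, chr10:5003858-5004107, minus strand: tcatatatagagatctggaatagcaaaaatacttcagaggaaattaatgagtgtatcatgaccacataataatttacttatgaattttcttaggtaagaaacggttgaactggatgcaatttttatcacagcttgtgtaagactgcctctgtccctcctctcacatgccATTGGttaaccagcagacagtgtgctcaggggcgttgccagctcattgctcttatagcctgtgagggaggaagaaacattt
AKR1C3, chr10:5048531-5048780, plus strand: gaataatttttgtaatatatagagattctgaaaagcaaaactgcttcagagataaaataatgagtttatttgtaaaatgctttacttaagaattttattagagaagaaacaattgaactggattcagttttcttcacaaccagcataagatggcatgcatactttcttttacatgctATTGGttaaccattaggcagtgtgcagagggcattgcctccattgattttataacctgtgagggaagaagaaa
AKR1C1 and AKR1C2 had the same base at 245 of 246 aligned positions (99.6%), whereas AKR1C1 and AKR1C3 were 75.0% identical. The CCAAT box lay 77 bases before the start of AKR1C1, 81 before AKR1C2 and 73 before AKR1C3. RefSeq gives a second AKR1C3 start, whose promoter (chr10:5094164-5094413, plus strand, not shown) was 74.5% identical to that of AKR1C1 and had its box 86 bases before the start. A CCAAT box on either strand was present in 34.6% of the 35116 promoter windows of 300 bases in RefSeq. The core of the antioxidant response element to which NRF2 binds, searched as TGACNNNGC on both strands, was found in 13.3% of these windows and in 0 of the windows of AKR1A1, AKR1B1, AKR1C1, AKR1C2 and AKR1C3. No match says only that these letters are not in this window.

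AKR1A1, the aldehyde reductase found in most tissues, and AKR1B1, the aldose reductase that turns glucose into sorbitol, carried most of the family's RNA in every line. Together they made up a mean of 91.9% (OVCAR3 ResA) to 98.5% (PEO1) of the summed TPM of the 6 members. AKR1A1 varied least, with line means from 34.1 ± 5.36 TPM in OVCAR4 ResA (SD, n = 3) to 96.6 ± 14.7 TPM in OVCAR3, a 2.83-fold range. AKR1B1 ranged 23.2-fold, from 54.4 ± 18.1 TPM in OVCAR3 ResA to 1263 ± 403 TPM in PEA1. PEA2 came next for AKR1B1 at 586 ± 98.8 TPM, and PEO1 and OVCAR4 ResB followed at 294 ± 29.1 and 291 ± 166 TPM. When the lines were ranked by AKR1A1 or by AKR1B1, 8 of the 10 neighbouring pairs in each order had overlapping libraries.

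AKR1B10, a reductase of retinal and other aldehydes, was at 7.43 to 17.1 TPM in all 6 PEA libraries and at 8.28 to 9.19 TPM in PEO4. It was below 1 TPM in every library of the sensitive lines OVCAR3, OVCAR4 and PEO1 and of the resistant line OVCAR3 ResA, and OVCAR4 ResA averaged 0.722 TPM. In total 19 of the 33 libraries reached 1 TPM. AKR1C3, which reduces androgen precursors to active androgens and makes prostaglandin F, had its highest levels in PEA1 at 79.1 ± 13.7 TPM, PEA2 at 28.9 ± 1.07 TPM and OVCAR4 ResB at 16.0 ± 7.12 TPM. Its lowest mean was 1.96 TPM in OVCAR3, 40.3-fold below PEA1.

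AKR1C1, which inactivates progesterone, was high in PEA2 alone among the lines, at 14.3 ± 0.879 TPM. OVCAR4 ResB was next at 2.78 ± 1.51 TPM, and no library of the other 9 lines was above 1.75 TPM. AKR1C2, which inactivates dihydrotestosterone, reached 1 TPM in 0 of 33 libraries. Its highest value was 0.684 TPM in a library of OVCAR4 ResB, 10 libraries had 3 counts or fewer, and all 10 neighbouring pairs in the order of the 11 lines overlapped. The AKR1C sum was 80.0 ± 14.2 TPM in PEA1, 43.6 ± 1.92 in PEA2, 19.2 ± 8.78 in OVCAR4 ResB and 3.29 in OVCAR3, the lowest line.

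**Figure D1:**
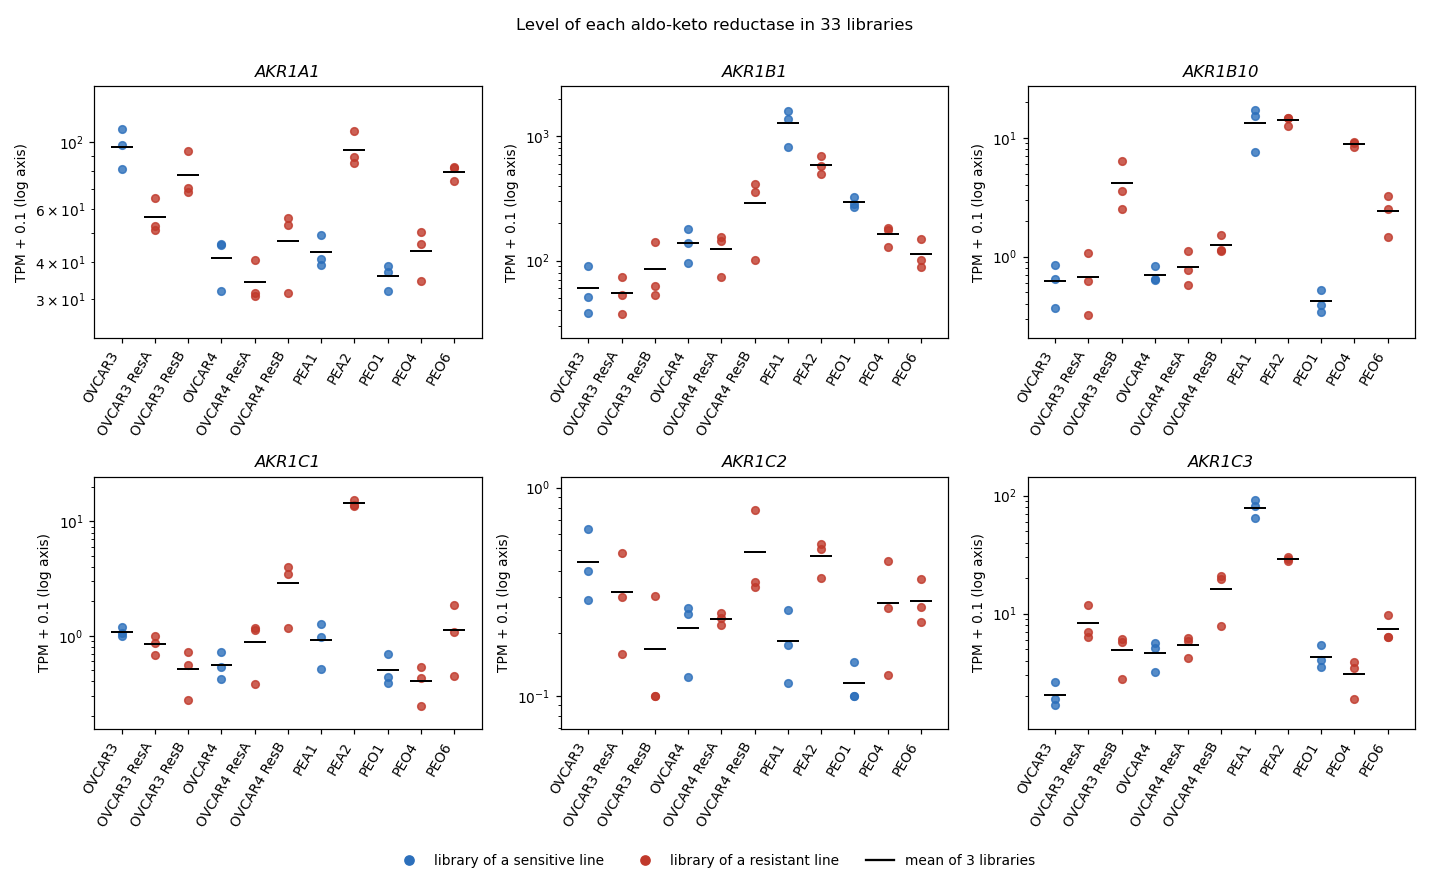
Level of each aldo-keto reductase in the 33 libraries, as TPM + 0.1 on a log axis against the 11 lines. Points are libraries coloured by the role of their line and bars are means of 3 libraries. AKR1A1 stays within a 2.83-fold range of line means, while AKR1C1 stands out in PEA2 (14.3 TPM) and AKR1C3 in PEA1 (79.1 TPM).

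Each resistant line was then compared with its sensitive partner to ask which members had changed with resistance. DESeq2 was fitted to the estimated counts with the replicate number and the line as terms, and a gene was called at a Benjamini-Hochberg adjusted p under 0.05 over all genes. Comparisons with the same partner share that partner's libraries. Of the 42 tests (6 members in 7 pairs), 14 were called, 9 of them higher and 5 lower in the resistant line. This is 33.3% of the tests, beside 29.8% for all gene-by-pair tests in the same fits, so members were called about as often as other genes. AKR1B10 was higher in 3 pairs and lower in 0. AKR1B1 was the reverse, lower in 3 and higher in 0. AKR1A1 and AKR1C3 each rose in 2 pairs and fell in 1, and AKR1C1 and AKR1C2 rose in 1 each.

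**Figure D2:**
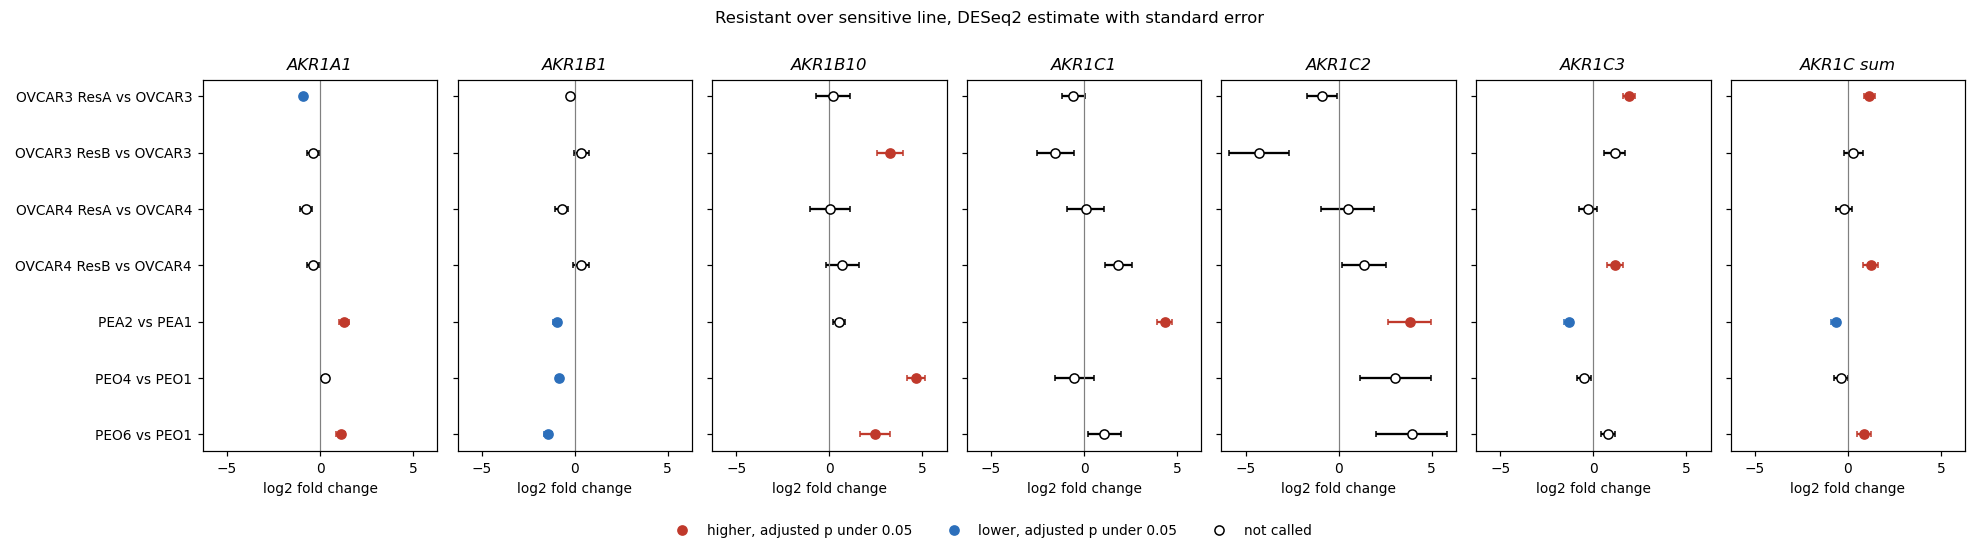
DESeq2 log2 fold change of each member and of the AKR1C sum (x axis) in the 7 resistant-sensitive pairs (y axis), with standard errors. Filled points passed an adjusted p of 0.05, red for higher and blue for lower in the resistant line. AKR1B10 has 3 filled points, all higher, and AKR1B1 has 3, all lower.

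In OVCAR3 ResA against OVCAR3, AKR1A1 fell and AKR1C3 rose. AKR1A1 was at 65.0, 50.9 and 52.7 TPM in OVCAR3 ResA and at 111, 97.8 and 81.5 TPM in OVCAR3, a log2 fold change of -0.90 ± 0.12 (SE, adjusted p = 5.74e-12). AKR1C3 was at 11.7, 6.24 and 6.97 TPM against 2.53, 1.78 and 1.58 TPM, 3.81-fold higher (log2 fold change 1.93 ± 0.32, adjusted p = 1.49e-08). The derivative's libraries lie wholly below OVCAR3 for AKR1A1 and wholly above it for AKR1C3. The AKR1C sum rose less, by 1.16 ± 0.28 (adjusted p = 0.000136), and this was not called without replicate 1 of both lines (adjusted p = 0.103). AKR1C1, not called, had a log2 fold change of -0.58 ± 0.63 (adjusted p = 0.490), and its share of the AKR1C TPM was 30.7% ± 7.13 (SD, n = 3) in OVCAR3 and 8.77% ± 3.64 in OVCAR3 ResA. Of the 11 ovarian carcinoma markers, 7 fell and 2 rose in the same comparison. Among those that fell were WT1 (-4.97), MSLN (-3.60) and KRT18 (-2.84). The summed level of the 11 markers was 5732 to 7731 TPM in OVCAR3 and 2644 to 3399 TPM in OVCAR3 ResA. The part of these markers in the differences was not tested. Of all genes tested in this comparison, 22.0% were called higher and 22.9% lower.

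In OVCAR3 ResB against OVCAR3, 1 member was called, AKR1B10. It was at 6.33, 2.39 and 3.44 TPM in OVCAR3 ResB and at 0.750, 0.542 and 0.269 TPM in OVCAR3, 9.52-fold higher (log2 fold change 3.25 ± 0.70, adjusted p = 0.000135). The background was 4.1% of genes higher and 3.57% lower. OVCAR3 itself had 3 to 17 AKR1B10 counts a library, and without replicate 1 of both lines the adjusted p was 0.12. AKR1B10 was at 0.979, 0.526 and 0.223 TPM in OVCAR3 ResA, so the 2 derivatives of OVCAR3 differed in it: in ResB against ResA it was 8.34-fold higher (log2 fold change 3.06 ± 0.66, adjusted p = 9.10e-05, or 0.105 without replicate 1). In that direct comparison 7.47% of genes were called higher and 6.04% lower. PECAM1, an endothelial marker, was also higher in OVCAR3 ResB than in OVCAR3 (log2 fold change 7.22 ± 0.76, adjusted p = 1.17e-18). Of the 6 tested markers of other cell types it was the only call. VWF, also an endothelial marker, did not reach 1 TPM in OVCAR3 ResB. Of the ovarian carcinoma markers, 2 were called lower and 0 higher, WT1 (-3.90) and SOX17 (-1.64). RNR1 and RNR2 took 5.97%, 8.88% and 1.12% of counts in the OVCAR3 ResB libraries, against 2.39%, 4.93% and 7.52% in OVCAR3. The part of these genes in the AKR1B10 difference was not tested. AKR1C3 was at 5.68, 2.72 and 6.02 TPM in OVCAR3 ResB, all above OVCAR3, but its log2 fold change of 1.15 ± 0.55 was not called (adjusted p = 0.252).

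In OVCAR4 ResA against OVCAR4, DESeq2 called 0 members, where 6.68% of genes were higher and 5.22% lower. At an unadjusted p under 0.05 there were 2, AKR1A1 and AKR1B1, beside 3574 genes of the whole table. That fit gave 14993 genes an adjusted p, so such values were common and do not set the 2 members apart. The quasi-likelihood test of edgeR called 0 members. AKR1A1 was at 30.7, 40.3 and 31.4 TPM in OVCAR4 ResA and at 45.4, 31.9 and 45.6 TPM in OVCAR4, with a log2 fold change of -0.77 ± 0.34 (adjusted p = 0.126). Without replicate 1 of both lines AKR1A1 was called lower, at -0.83 (adjusted p = 0.0058). The TPM libraries overlapped. On the TPM scale the median of the genes with a mean of at least 1 TPM was higher in OVCAR4 ResA by 0.44 (log2), so TPM levels and fitted changes are not on 1 scale in this family. RNR1 and RNR2 took 5.18%, 14.8% and 12.0% of counts in the OVCAR4 libraries, 9.23%, 2.02% and 2.09% in OVCAR4 ResA and 13.1%, 2.47% and 2.39% in OVCAR4 ResB. Their part in the results of this family was not tested.

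In OVCAR4 ResB against OVCAR4, the call was AKR1C3. It was at 7.81, 19.6 and 20.6 TPM in OVCAR4 ResB and at 5.50, 3.11 and 5.06 TPM in OVCAR4, 2.21-fold higher by the fit (log2 fold change 1.15 ± 0.43, adjusted p = 0.0439). Replicate 1 of OVCAR4 ResB is the library nearest to OVCAR4, and it is also the one with 13.1% RNR1 and RNR2. The AKR1C3 call held in 4 of 10 alternative settings, whose adjusted p ran from 7.95e-05 to 0.665 (0.665 without replicate 2 and 0.625 without replicate 3), and the call on the AKR1C sum (1.23 ± 0.41, adjusted p = 0.0186) held in 5 of 10, from 2.84e-05 to 0.543. AKR1C1, at 1.06, 3.38 and 3.90 TPM against 0.431, 0.615 and 0.321 TPM, was apart in its libraries but missed the threshold (1.84 ± 0.72, adjusted p = 0.0581). AKR1B1, not called with all replicates, was called higher without replicate 1 (0.87, adjusted p = 3.75e-07). In this comparison 9.09% of genes were higher and 8.77% lower.

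In OVCAR4 ResB against OVCAR4 ResA, 4 members were called, all higher in ResB. AKR1C3 was 2.73-fold higher (log2 fold change 1.45 ± 0.27, adjusted p = 1.01e-06) and the AKR1C sum 2.75-fold higher (1.46 ± 0.24, adjusted p = 2.70e-08). AKR1C1 was higher by 1.77 ± 0.54 (adjusted p = 0.00529), a call lost without replicate 2 (0.278) or replicate 3 (0.229). AKR1B1 was at 102, 358 and 412 TPM in ResB and at 74.2, 155 and 143 TPM in ResA, with overlapping libraries. Its log2 fold change of 1.03 ± 0.17 (adjusted p = 3.80e-08) depended on the pairing of replicates: without the replicate block the adjusted p was 0.0762. AKR1A1 was higher by 0.40 ± 0.16 (adjusted p = 0.0475), called in 3 of 10 alternatives, with adjusted p up to 0.525, and likewise not without the block (0.306). The background was 16.2% of genes higher and 16.5% lower.

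PEA2 against PEA1 had 5 members called, and the AKR1C genes moved in opposite directions. AKR1C1 was at 13.9, 15.3 and 13.7 TPM in PEA2 and at 1.16, 0.414 and 0.875 TPM in PEA1, 20.3-fold higher (log2 fold change 4.35 ± 0.41, adjusted p = 2.42e-25). AKR1C3 was at 28.0, 30.1 and 28.7 TPM against 91.0, 64.1 and 82.2 TPM, a log2 fold change of -1.32 ± 0.24 (adjusted p = 2.77e-07). Every PEA2 library therefore lay above PEA1 for AKR1C1 and below it for AKR1C3, and the AKR1C1 share of AKR1C TPM went from 0.982% ± 0.311 to 32.8% ± 0.672 (SD, n = 3). In the sum these partly cancelled, with a log2 fold change of -0.66 ± 0.24 (adjusted p = 0.0152, or 0.37 without replicate 1). AKR1C2 was called higher (3.81 ± 1.14, adjusted p = 0.00254) on 16.9 to 31.1 counts in PEA2 and 1 to 3 in PEA1. Its ratio of counts was 13.4, with a counting interval of 5.46 to 42.5 at the 95% level that covers counting error only. That call held in 6 of 8 alternatives and was lost without replicate 1 (adjusted p = 0.106) or replicate 2 (0.146). Because AKR1C1 and AKR1C2 share sequence, part of the AKR1C2 counts may be reads of AKR1C1.

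**Figure D3:**
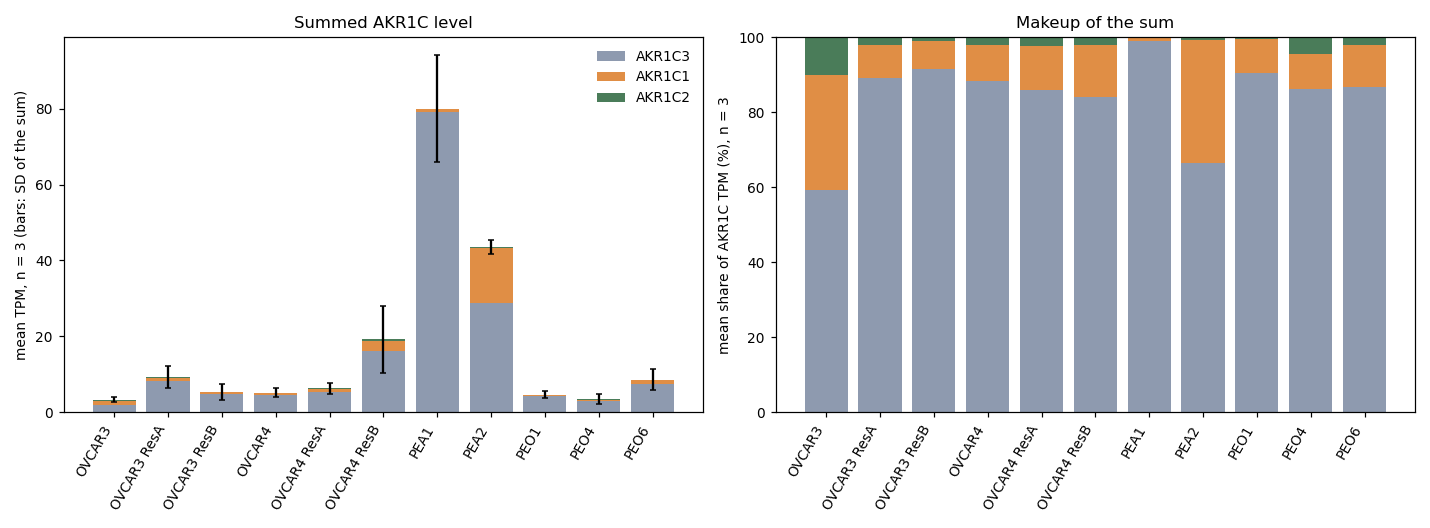
Left, mean TPM of AKR1C1, AKR1C2 and AKR1C3 stacked for each line, with the SD of the sum (n = 3). Right, the mean share of each gene in the AKR1C TPM. AKR1C3 holds 98.9% of the sum in PEA1 and 66.4% in PEA2, where AKR1C1 holds 32.8% and in OVCAR3 AKR1C1 holds 30.7%.

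The other members also moved in PEA2. AKR1A1 was at 88.9, 85.0 and 109 TPM in PEA2 and at 49.0, 39.0 and 40.9 TPM in PEA1, 2.42-fold higher (log2 fold change 1.28 ± 0.26, adjusted p = 4.23e-06). AKR1B1 was at 691, 571 and 495 TPM against 1602, 817 and 1370 TPM, a log2 fold change of -0.95 ± 0.22 (adjusted p = 9.11e-05, or 0.0591 without replicate 1). AKR1A1 rose and AKR1B1 fell with no overlap of libraries, while AKR1B10, at 14.7, 14.7 and 12.5 TPM against 17.1, 15.0 and 7.43 TPM, overlapped and was not called (0.52 ± 0.31, adjusted p = 0.166). The background in this comparison was 23.3% of genes higher and 23.8% lower. The summed level of the ovarian carcinoma markers was 407 to 450 TPM in PEA1 and 3686 to 3928 TPM in PEA2. The 8 markers of other cell types summed to 79.6 to 139 TPM in PEA1 and 52.9 to 56.0 TPM in PEA2. Of the 6 that were tested, 3 were called higher and 2 lower in PEA2. PTPRC, a defining marker of blood cells, was at 3.30 TPM in PEA2 and at 0 in PEA1. The stromal markers PDGFRB and COL1A1 had log2 fold changes of -8.90 and -6.50. The part of these markers in the differences was not tested.

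In PEO4 against PEO1, AKR1B10 rose and AKR1B1 fell. AKR1B10 was at 8.91, 9.19 and 8.28 TPM in PEO4 and at 0.292, 0.426 and 0.242 TPM in PEO1, 25.3-fold higher (log2 fold change 4.66 ± 0.48, adjusted p = 1.69e-20). AKR1B1 was at 177, 182 and 129 TPM against 287, 270 and 326 TPM, a log2 fold change of -0.83 ± 0.17 (adjusted p = 7.05e-06). These neighbours on chromosome 7 thus changed in opposite directions in PEO4. Of all genes, 16.6% were higher and 16.7% lower.

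In PEO6 against PEO1, 3 members were called. AKR1A1 was at 82.1, 74.1 and 82.6 TPM in PEO6 and at 36.8, 38.7 and 31.9 TPM in PEO1, 2.15-fold higher (log2 fold change 1.10 ± 0.24, adjusted p = 2.36e-05). AKR1B1 was at 101, 88.3 and 148 TPM in PEO6, a log2 fold change of -1.44 ± 0.22 (adjusted p = 2.04e-09). AKR1B10 was at 2.42, 1.36 and 3.13 TPM, 5.48-fold above PEO1 (2.45 ± 0.79, adjusted p = 0.0068). AKR1B10 again moved up and AKR1B1 down, as in PEO4, with which PEO6 shares the PEO1 libraries. The AKR1B10 call was lost without replicate 1 (adjusted p = 0.143) or replicate 3 (0.265). AKR1C3 was not called (0.78 ± 0.37, adjusted p = 0.0784), whereas the AKR1C sum was (0.87 ± 0.36, adjusted p = 0.0383), but not without replicate 1, 2 or 3 (0.439, 0.192 and 0.132). The background was 21.2% of genes higher and 20.3% lower.

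PEO6 and PEO4 also differed directly. AKR1B10 was lower in PEO6 by a log2 fold change of -2.19 ± 0.49 (adjusted p = 0.000167, or 0.183 without replicate 2). AKR1A1 was higher by 0.83 ± 0.29 (adjusted p = 0.0283) and AKR1C3 by 1.28 ± 0.45 (adjusted p = 0.0311), each called in 5 of 10 alternatives. AKR1A1 lost the call without replicate 1 (0.266) or 2 (0.38), and AKR1C3 without replicate 1 (0.5), 2 (0.241) or 3 (0.0632). AKR1B1, with a log2 fold change of -0.60 ± 0.30 (adjusted p = 0.165), was called without replicate 3 (-0.84, adjusted p = 0.00621). Here 9.86% of genes were higher and 8.33% lower.

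To ask whether any member moved the same way across families, counts were summed per line and the 7 resistant lines were compared with the 4 sensitive lines with the family as a term. DESeq2 called 0 members of all 6, and 1 of them, AKR1B10, had an unadjusted p under 0.05. So did 1423 genes of the whole table, in a fit that gave 23805 genes an adjusted p. The log2 fold change of AKR1B10 was 1.59 ± 0.72 (adjusted p = 0.689), and over the alternatives it stayed above 0, with adjusted p from 0.503 to 0.999. Of all genes, 0.13% were called higher and 0.155% lower, and edgeR called 0 genes. By contrast, a likelihood ratio test over the 33 libraries of whether the resistant-minus-sensitive change differed between the pairs was called for all 6 members and both sums. That test was called for 70.2% of all genes, so it does not set the members apart. AKR1B1 had the largest adjusted p among the members (2.67e-05, or 0.0534 without replicate 2).

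The genes beside each locus were examined to see whether members moved with their neighbourhood. In OVCAR3 ResA, where AKR1A1 fell, 8 of its 10 nearest measured genes also fell and 0 rose, with a median log2 fold change of -0.77. NASP, a histone chaperone, fell by 1.31 on the log2 scale and PRDX1, a peroxidase, by 0.52. In PEA2, where AKR1A1 rose by 1.28, 6 of the same 10 genes fell and 1 rose, with a median of -0.66. AKR1A1 thus moved with its neighbours in OVCAR3 ResA and against them in PEA2. In PEO6, where AKR1A1 rose by 1.10, 1 of the 10 rose and 2 fell, with a median of -0.20. Around AKR1B1 and AKR1B10, 0 of 10 genes rose and 4 fell in PEO4, and 5 fell in PEO6 (median -0.62), the direction of AKR1B1 and not of AKR1B10. In PEA2, where AKR1B1 fell, 1 of these 10 rose and 3 fell, but their median was 0.23. In OVCAR4 ResB against ResA, where AKR1B1 was higher, 6 of 9 tested genes there were higher and 0 lower. Around the AKR1C genes, 2 of 5 tested genes rose and 0 fell in OVCAR3 ResA, where AKR1C3 rose, and 3 of 5 fell and 0 rose in PEA2 (median -0.83), where AKR1C3 fell and AKR1C1 rose. All 5 fell in PEO6 (median -1.26), while the AKR1C sum had a log2 fold change of 0.87. Over all genes tested, 22.0% rose and 22.9% fell in OVCAR3 ResA, and 23.3% rose and 23.8% fell in PEA2. These shares were 16.6% and 16.7% in PEO4, 21.2% and 20.3% in PEO6, and 16.2% and 16.5% in OVCAR4 ResB against ResA. With so few genes at a locus, whether its counts differ from these shares was not tested. DNA copy number was not analysed here.

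**Figure D4:**
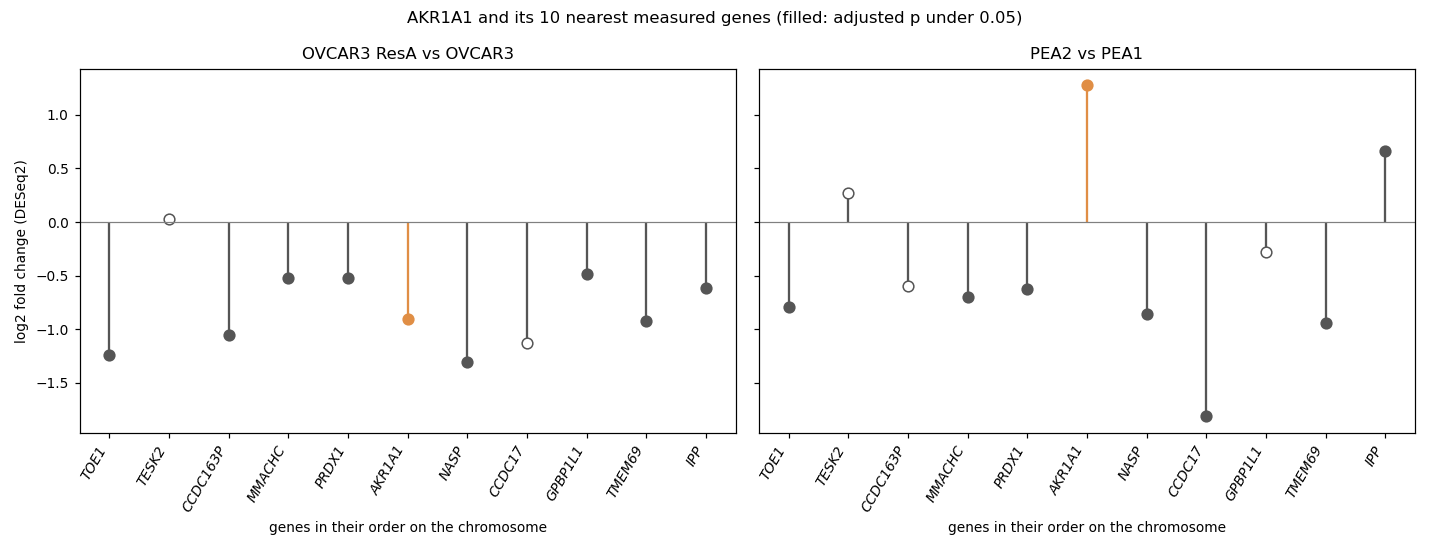
DESeq2 log2 fold change (y axis) of AKR1A1 and its 10 nearest measured genes, in their order on chromosome 1, in OVCAR3 ResA and PEA2 against their sensitive partners. Filled points have an adjusted p under 0.05. AKR1A1 falls with 8 of 10 neighbours in OVCAR3 ResA and rises in PEA2, where 6 of 10 fall.

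NRF2 itself and its other targets are described beside the members, and their part in the changes of the members was not tested. NFE2L2 rose in PEA2 (log2 fold change 0.996 ± 0.236, adjusted p = 0.000107) and fell in OVCAR3 ResA by 0.64 on the log2 scale (adjusted p = 1.30e-05), where AKR1C3 rose. Over the 7 pairs, 44.8% of the tests on 22 NRF2 targets were called, 30 higher and 39 lower, beside 29.8% for all genes. In OVCAR3 ResA 8 rose and 6 fell, and in PEA2 8 rose and 5 fell. In PEO6, where AKR1B10 rose, 3 of 22 rose and 12 fell, with a median of -0.66 beside 0.02 for all genes tested. In PEO4, 3 rose and 8 fell. Both PEO lines had less GCLM, a subunit of the glutathione-making ligase (-1.39 in PEO4 and -2.64 in PEO6), and more GCLC, its catalytic subunit (1.68 and 1.25). NQO1, the quinone reductase often read as a marker of NRF2 activity, rose by 1.91 ± 0.11 in OVCAR3 ResA (adjusted p = 2.87e-65) and fell in OVCAR4 ResA by 1.42, in OVCAR4 ResB by 1.29 and in PEA2 by 0.80 on the log2 scale. TXNRD1, a thioredoxin reductase, rose by 2.36 in PEA2, from 345 to 1572 TPM, and fell by 1.39 in OVCAR3 ResA. In OVCAR3 ResB, where AKR1B10 rose, 2 of 22 targets rose and 0 fell.

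Of the 6 partners of AKR1B1 in the polyol pathway and in handling its sugar substrates, 4 rose and 0 fell in OVCAR3 ResA, and 4 rose and 1 fell in PEA2. SORD, which turns sorbitol into fructose, rose in PEA2 (0.69, adjusted p = 0.00652), where AKR1B1 fell. In PEO6, 0 rose and 3 fell, in the direction of AKR1B1. Over all pairs 38.1% of the tests on these partners were called, beside 29.8% for all genes. Among 12 other carbonyl-metabolising enzymes, CBR1, a carbonyl reductase with substrates that overlap those of the AKR family, rose by 3.36 in PEO4 and 4.08 in PEO6, from 4.18 TPM in PEO1 to 41.7 and 71.2 TPM. Of these 12, 5 rose and 3 fell in PEO4, and 5 rose and 2 fell in PEO6. DHRS2 (-3.44 in PEO4 and -4.26 in PEO6) and CBR3 (-1.49 and -1.65) were among those that fell. In total 37.0% of the tests on these enzymes were called, 13 higher and 17 lower, against the same 29.8%.

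Likeness to each member was measured as Pearson's r over the 11 line means of log2(TPM + 1), which share libraries, families and depth, so it is a description. The closest genes to AKR1C3 were GLOD4 (r = 0.97), METTL16 (0.93) and MYO1C (0.92), all on chromosome 17. Without the PEA lines, where AKR1C3 was highest, these were 0.89, 0.78 and 0.69. The genes given for AKR1B1 are AFAP1L1 (0.97) and PIP4K2A (0.95), with r of 0.89 and 0.94 without the PEA lines. AKR1B10 was most like XPO5 (0.92), OGFRL1 (0.90) and PLEK2 (0.89), and AKR1C1 most like IL1B, SRGN and FLI1 (0.96 each). Without the PEA lines these were 0.87, 0.75 and 0.74 for AKR1B10 and 0.85, 0.76 and 0.87 for AKR1C1. The highest r was 0.87 for AKR1A1 and 0.81 for AKR1C2. Among the members themselves, AKR1B1 with AKR1C3 (0.82) and AKR1C1 with AKR1C2 (0.70) were the most alike over the 11 lines. AKR1B1 and AKR1C3 were both highest in PEA1 and PEA2, and their r was not taken again without the PEA lines. AKR1C2 was at or below 0.684 TPM in every library and shares sequence with AKR1C1.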

How the data were processed

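Poly(A) RNA of 33 libraries was sequenced from 1 pool over several runs, and reads were mapped to GRCh38 by the nf-core/rnaseq pipeline; DRAGEN is named in the submitters' processing notes. The authors deposited estimated counts per gene from salmon, of which 88.4% were whole numbers, and TPM per gene, which were used as deposited. Counts were rounded. DESeq2 (1.42.0, R 4.3.3) was fitted with replicate and line over the 6 libraries of each comparison, the study's own design, and p-values were adjusted over all genes. For sums, the rows of the copies were replaced by their sum in a separate fit. Line-level tests used counts summed per line with family and role, and the difference between pairs a likelihood ratio test over 33 libraries. Roles of lines come from the study's text.

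Replicate numbers paired the libraries (correlation of same-numbered deviations from the line means above 0.1 for all 3 numbers) for the ResA derivative with its parent OVCAR3 (0.636, 0.218 and 0.426) and between the pair of OVCAR4 derivatives (0.63, 0.445 and 0.488), a hint from the data since the labels name no shared batch. All 3 values were below 0 for OVCAR4 ResA (-0.342, -0.257 and -0.057) and OVCAR4 ResB (-0.407, -0.291 and -0.034) with OVCAR4. PEO6 with PEO4 gave -0.227, -0.119 and -0.375, and in the remaining comparisons not all values were above 0.1. The block was kept in the main fit of every comparison, as in the study. Without it 3462 genes were called in OVCAR4 ResA against OVCAR4, beside 1784 with it. Alternatives were edgeR (4.0.16) with TMM, DESeq2 with TMM factors, a filter of at least 10 counts in 3 libraries, no replicate block, all 33 libraries in 1 fit, limma (3.58.1) on log2(TPM + 1) and log2(TPM + 0.1) for genes with a mean of at least 1 TPM, and leaving out each replicate or family. The fits were tested on simulated data with known changes and no replicate or library-quality effects, so that test does not cover such effects. Members and gene lists were chosen with earlier results of these data known. Every member is named; of each list, the 3 called genes with the largest change at a mean of at least 100 normalised counts, or genes adjacent in function to a member; for likeness, the 3 genes with the highest r among those with a mean of at least 1 TPM and an SD of at least 0.5. Genes that these rules name but the text does not are not reported here. Likeness without the family of the member's highest line was added after seeing the data.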

Additional observations from a re-analysis of the deposited data

Results flagged for a closer look

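The change from sensitive to resistant line differed between the 7 pairs for every member in the likelihood ratio test of the difference itself, as it did for 70.2% of all genes. The adjusted p was 5.84e-26 for AKR1A1, whose log2 fold changes ran from -0.90 in OVCAR3 ResA to 1.28 in PEA2. For AKR1B10 it was 2.93e-20, with log2 fold changes from 0.02 to 4.66, and for AKR1B1 2.67e-05, from -1.44 to 0.35. AKR1C3 had an adjusted p of 1.93e-22 and changes from -1.32 to 1.93. AKR1C1 had 3.33e-13 and AKR1C2 5.13e-08, the latter on few counts. The AKR1C sum had 4.09e-14, with changes from -0.66 to 1.23, and the sum of AKR1B10 and AKR1B15 had 1.72e-20. DESeq2 was the tool in each case. No group held more than 3 libraries, so no test for a single outlying library was made.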

How the results depend on the processing

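OVCAR4 ResB against OVCAR4 went from 1 to 0 with edgeR, with TMM scaling and with limma on log2(TPM + 1) (0) or log2(TPM + 0.1) (0), to 2 with the low-count filter or all 33 libraries in 1 fit, and from 0 to 3 when a replicate was left out. OVCAR4 ResA against OVCAR4 went from 0 to 1 with all 33 libraries, and 0 to 1 leaving out a replicate. All 33 libraries in 1 fit gave 3 instead of 1 in OVCAR3 ResB, 6 instead of 3 in PEO6 against PEO1 and 4 instead of 1 in OVCAR3 ResB against ResA. In PEO6 against PEO4, limma called 1 of the 3 on either scale. Leaving out a replicate gave 0 to 1 in OVCAR3 ResB, 0 to 1 in OVCAR3 ResB against ResA, 3 to 5 in PEA2, 2 to 4 in OVCAR4 ResB against ResA and 0 to 3 in PEO6 against PEO4. The cause was not tested. Without the replicate block the count was 2 instead of 1 in OVCAR3 ResB (AKR1C2, adjusted p = 0.0485), 1 instead of 0 in OVCAR4 ResA (AKR1A1, 0.007), 2 instead of 1 in OVCAR4 ResB (AKR1C1, 0.00799) and 2 instead of 4 in OVCAR4 ResB against ResA, and AKR1B1 in PEO6 against PEO4 was called (0.0463); no other call changed. The 0 calls at the level of lines and the 6 members in the test between pairs stayed within 1.5 times under all their settings.

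Estimates that changed sign were not called in the main fits. AKR1B1 in OVCAR4 ResB was called without replicate 1 (DESeq2, adjusted p = 3.75e-07). Leaving out a replicate, AKR1B10 + AKR1B15 in OVCAR3 ResA ran from -0.070 to 0.24, AKR1B1 in OVCAR3 ResB from -0.12 to 0.78 and AKR1C2 in PEO6 against PEO4 from -0.28 to 1.23, each lowest without replicate 3. In OVCAR4 ResA, AKR1B10 ran from -0.45 to 0.44 and AKR1B10 + AKR1B15 from -0.084 to 0.55, lowest without replicate 1, AKR1C1 from -0.36 (replicate 3) to 0.44 and AKR1C2 from -0.19 (replicate 2) to 0.35. AKR1B1 in OVCAR4 ResB ran from -0.031 (replicate 2) to 0.87. With limma, AKR1C3 in OVCAR4 ResA was 0.21 and 0.25, the AKR1C sum 0.25 and 0.29, and AKR1A1 in OVCAR4 ResB 0.16 and 0.17. Between lines, AKR1A1 was -0.23 without the PEA and -0.14 without the PEO family, and AKR1C3 -0.023 without the OVCAR3 family. On the TPM scale the median of the genes with a mean of at least 1 TPM moved by 0.14 and 0.16 in OVCAR3 ResA, by 0.12 on both in its sister ResB, 0.44 and 0.48 in OVCAR4 ResA, 0.48 and 0.53 in OVCAR4 ResB and -0.10 and -0.11 in PEA2. The share of calls that were higher went from 49.0% to 63.7%, from 56.2% to 69.1% and 69.2%, and from 50.9% to 66.7% and 68.0% in the ResA derivatives of OVCAR3 and OVCAR4 and in OVCAR4 ResB. Calls over all genes ranged from 4920 to 9839 in OVCAR3 ResA (main 8146), 306 to 3056 in OVCAR3 ResB (1255), 81 to 6221 in OVCAR4 ResA (1784), 276 to 7241 in OVCAR4 ResB (2853), 4283 to 9174 in PEA2 (8088), 2921 to 6388 in PEO4 (5820), 3712 to 7607 in PEO6 (6962), 597 to 5042 in OVCAR3 ResB against ResA (2202), 1847 to 5947 in OVCAR4 ResB against ResA (5218), 752 to 5223 in PEO6 against PEO4 (3043) and 0 to 199 between lines (68). Depth limits AKR1C2, AKR1C1 and the sensitive-line levels of AKR1B10, which rest on few counts.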

Other observations

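Among the other genes of the family, AKR1D1, the reductase that saturates the steroid ring in bile acid synthesis in liver, was at 93.5, 93.5 and 93.8 TPM in PEO4 and at 0.713, 0.264 and 0.192 TPM in PEO1. Its log2 fold change was 8.10 ± 0.34 (DESeq2, adjusted p = 2.01e-125). PEO6, from the same donor, had 0.399, 0.0861 and 0.644 TPM, so PEO4 stood apart from both relatives. Outside PEO4, the highest AKR1D1 value was 2.43 TPM in 1 library of OVCAR4 ResA, whose other libraries were at or below 0.0493 TPM. KCNAB2, a potassium channel subunit of the same fold, rose in OVCAR3 ResA (0.71), PEA2 (2.05), PEO4 (1.59) and PEO6 (1.15). AKR1E2, the gene next to the AKR1C cluster, fell by 1.69 in PEO4 and fell by 2.15 in PEO6 on the log2 scale. On few counts, it was also lower in OVCAR4 ResA (-4.26, adjusted p = 0.0243) and OVCAR4 ResB (-3.46, adjusted p = 0.0119). The AKR1E2 counts were 6, 0 and 1 in OVCAR4 ResA and 2, 3 and 2 in OVCAR4 ResB, against 21, 12 and 24 in OVCAR4. Over the 7 pairs 25.0% of the tests on 10 other family genes were called, 8 higher and 5 lower, beside 29.8% for all genes.

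For the genes that make or answer to the substrates of the AKR1C enzymes, called shares are read beside the same 29.8% for all genes. Of the tests on prostaglandin enzymes 41.7% were called, 10 higher and 20 lower. In PEA2, where AKR1C3 fell, PTGS2, the inducible cyclooxygenase, rose by 4.60 and PTGES, a prostaglandin E synthase, by 5.31, while HPGD, which degrades prostaglandins, went from 22.9 to 0.0989 TPM. PTGS1, the other cyclooxygenase, fell by 6.37 in OVCAR3 ResA, where AKR1C3 rose, and rose by 4.89 in PEO6. PGR, the progesterone receptor, was at or below a mean of 0.562 TPM in every line. Of the tests on steroid enzymes 34.7% were called and of those on steroid and prostaglandin receptors 43.6%. Among retinoid enzymes, which share substrates with AKR1B10, 46.4% were called. ALDH1A3, which oxidises retinal to retinoic acid, rose by 7.64 in PEA2, from 3.74 to 686 TPM, and fell by 8.88 in PEO6, from 1557 to 3.79 TPM. Of the tests on NRF2 regulators 26.8% were called, 8 higher and 7 lower.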
